A study of Mus musculus with 12 samples.

Results

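The lysosomal module described here comprised 44 genes, made up of 24 soluble hydrolases, 12 genes of the vacuolar proton pump and 8 membrane proteins or soluble cofactors. A gene entered through the probe sets annotated with its symbol and no other, and where several existed the one with the highest mean over all tumours was used. Of the 44 genes, 43 were measured, among 19937 genes with such a probe set. The pump gene Atp6v0c had no probe set with a single symbol and was not analysed here. Arsb was the only member with more than 1 such probe set.

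Tumours had been grown in 6 p62 KO mice and 6 wild-type mice of the C57BL6 background. Each mouse received 50000 cells of TRAMP-C2Re3, a murine prostate carcinoma line syngeneic to the hosts, into the prostate, and whole tumours were taken at 60 days. The protein p62, product of Sqstm1, is a cargo receptor of autophagy, and the comparison asked how its absence from the host alters tumour RNA. The labels describe the hosts only as p62 KO, and the injected cells, which carry their own Sqstm1, were the same for both host genotypes. Every tumour was hybridised to its own array, and RNA of the injected cells and of host cells could not be told apart, because both come from the mouse.

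Lysosomes are acidic organelles in which material taken up by endocytosis or delivered by autophagy is broken down. The hydrolases act on sugars, sulfate esters, proteins and lipids, the vacuolar ATPase pumps protons to hold the lumen at the acid pH they need, and the limiting membrane is built of heavily glycosylated proteins, channels and transporters. Many of these genes are controlled together by TFEB, TFE3 and MITF, which bind E-box elements with the core CACGTG near the start of transcription. Macrophages are rich in lysosomes, and cathepsins of macrophages and of carcinoma cells are a familiar feature of solid tumours.

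Promoters carrying this core are shown for 5 members drawn from the 3 classes, because the core is the regulatory element known to link these genes. The sequences are those of RefSeq on GRCm38.p6, running from 250 bases before to 50 bases after the annotated start, 5′ to 3′ on the strand of the gene, with every CACGTG in capitals. Lamp1, an abundant glycoprotein of the lysosomal membrane, lies on the plus strand at chr8:13158911-13159210, Mcoln1, a calcium-permeable channel, on the plus strand at chr8:3500269-3500568, Ctsd, the aspartic protease cathepsin D, on the minus strand at chr7:142387778-142388077, Gaa, which degrades glycogen, on the plus strand at chr11:119267713-119268012, and Atp6v0b, a proteolipid of the pump's membrane ring, on the minus strand at chr4:117887280-117887579.
Lamp1: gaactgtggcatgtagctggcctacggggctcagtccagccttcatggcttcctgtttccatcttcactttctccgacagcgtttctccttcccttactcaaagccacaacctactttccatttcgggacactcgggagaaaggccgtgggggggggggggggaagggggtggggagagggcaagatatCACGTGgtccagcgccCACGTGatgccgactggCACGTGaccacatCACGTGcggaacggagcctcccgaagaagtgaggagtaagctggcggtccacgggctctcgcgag
Mcoln1: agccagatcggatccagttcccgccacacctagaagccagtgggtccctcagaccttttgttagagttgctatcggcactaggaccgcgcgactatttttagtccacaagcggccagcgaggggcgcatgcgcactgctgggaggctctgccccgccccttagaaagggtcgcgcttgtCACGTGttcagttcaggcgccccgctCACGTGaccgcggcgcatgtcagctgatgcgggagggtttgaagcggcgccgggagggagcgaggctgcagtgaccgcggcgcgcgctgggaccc
Ctsd: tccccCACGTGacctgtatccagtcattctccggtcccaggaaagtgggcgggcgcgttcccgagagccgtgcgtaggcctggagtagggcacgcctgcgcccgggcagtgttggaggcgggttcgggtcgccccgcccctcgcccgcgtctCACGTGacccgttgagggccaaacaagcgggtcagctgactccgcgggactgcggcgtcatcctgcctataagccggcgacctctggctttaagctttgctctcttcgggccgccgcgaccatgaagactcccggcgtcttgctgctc
Gaa: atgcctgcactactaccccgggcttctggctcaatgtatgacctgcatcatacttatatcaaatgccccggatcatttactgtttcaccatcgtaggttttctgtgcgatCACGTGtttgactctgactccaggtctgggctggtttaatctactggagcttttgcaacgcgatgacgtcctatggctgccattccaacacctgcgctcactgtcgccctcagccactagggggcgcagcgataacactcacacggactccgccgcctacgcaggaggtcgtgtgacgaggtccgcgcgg
Atp6v0b: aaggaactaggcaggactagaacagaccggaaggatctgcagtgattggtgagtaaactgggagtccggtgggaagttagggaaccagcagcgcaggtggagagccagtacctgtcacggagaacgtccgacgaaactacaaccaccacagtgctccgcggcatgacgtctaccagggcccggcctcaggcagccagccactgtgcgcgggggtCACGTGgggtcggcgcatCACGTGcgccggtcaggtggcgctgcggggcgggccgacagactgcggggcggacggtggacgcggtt

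Counted from the start, the first base of the core stood at -61, -45, -28 and -15 in Lamp1, at -71 and -45 in Mcoln1, at -245 and -98 in Ctsd, at -140 in Gaa, and at -36 and -18 in Atp6v0b. RefSeq windows were available for 38 of the 44 members, and 15 of them (39.5%) held CACGTG, which reads the same on both strands, against 8.09% of 27025 genes with a window and 8.91% of the 17491 that code for proteins. More than 1 copy occurred in 6 members (15.8%), against 0.681% of all genes with a window and 0.863% of those that code for proteins. The core was found in 10 of 22 hydrolase windows, 3 of 9 pump windows and 2 of 7 windows of membrane proteins or cofactors. The motif was searched only in these 300 bases, and a match is a run of letters, not a bound site. Differences between hosts had a median of 0.11 over the 15 members with the core, 12 of them above 0, and 0.04 over the 22 measured members without it, 16 of them above 0. No member passed the test between hosts described below. Of the 15, 10 are hydrolases, a class with a median difference of 0.12, against -0.01 for pump genes. A link between the core and the difference was not tested.

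Pairwise correlations between arrays ran from 0.935 to 0.991. The interquartile range of an array was 2.26 and 2.15 in KO hosts 2 and 3 and 2.59 and 2.47 in wild-type hosts 2 and 5, against 2.70 to 2.95 in the other 8 tumours, and results are therefore also given for those 8, 4 per genotype. Sqstm1 averaged 8.73 ± 0.39 in KO-host tumours and 8.89 ± 0.23 in wild-type-host tumours (log2 intensity, SD, n = 6 each), a difference of -0.16 (SE 0.17). Since the injected cells carry the gene, this level does not check the host labels. Epithelial markers averaged 6.05 ± 0.18 in KO-host tumours and 5.98 ± 0.14 in wild-type-host tumours, and without detection calls their presence could not be judged. All levels are log2 intensities, and differences are log2 values of KO hosts minus wild-type hosts.

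No lysosomal gene passed the test between host genotypes. Of 43 members, 0 were called at an adjusted p under 0.05 (limma, Benjamini-Hochberg over 28192 probe sets), where 0.00355% of all probe sets were called. Adjusted p-values of the members lay between 0.9935 and 0.9992. At an unadjusted p under 0.05 there were 3 members, Ctsd, Ctsl and Gaa, with higher levels in KO hosts and 0 with lower levels, against 1.28% and 1.11% of all probe sets, or 2.39% in either direction. In 0 members did the 2 groups of tumours not overlap, against 0.0709% of all probe sets with higher and 0.0745% with lower KO values. Differences were above 0 for 30 of the 43 members, with a median of 0.04, a count that ran from 20 without KO host 6 to 39 without KO host 3. Over all probe sets 57.2% were above 0, and over the 7048 brightest probe sets, among which most members lie, 31.2% were above 0 with a median of -0.07.

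**Figure D1:**
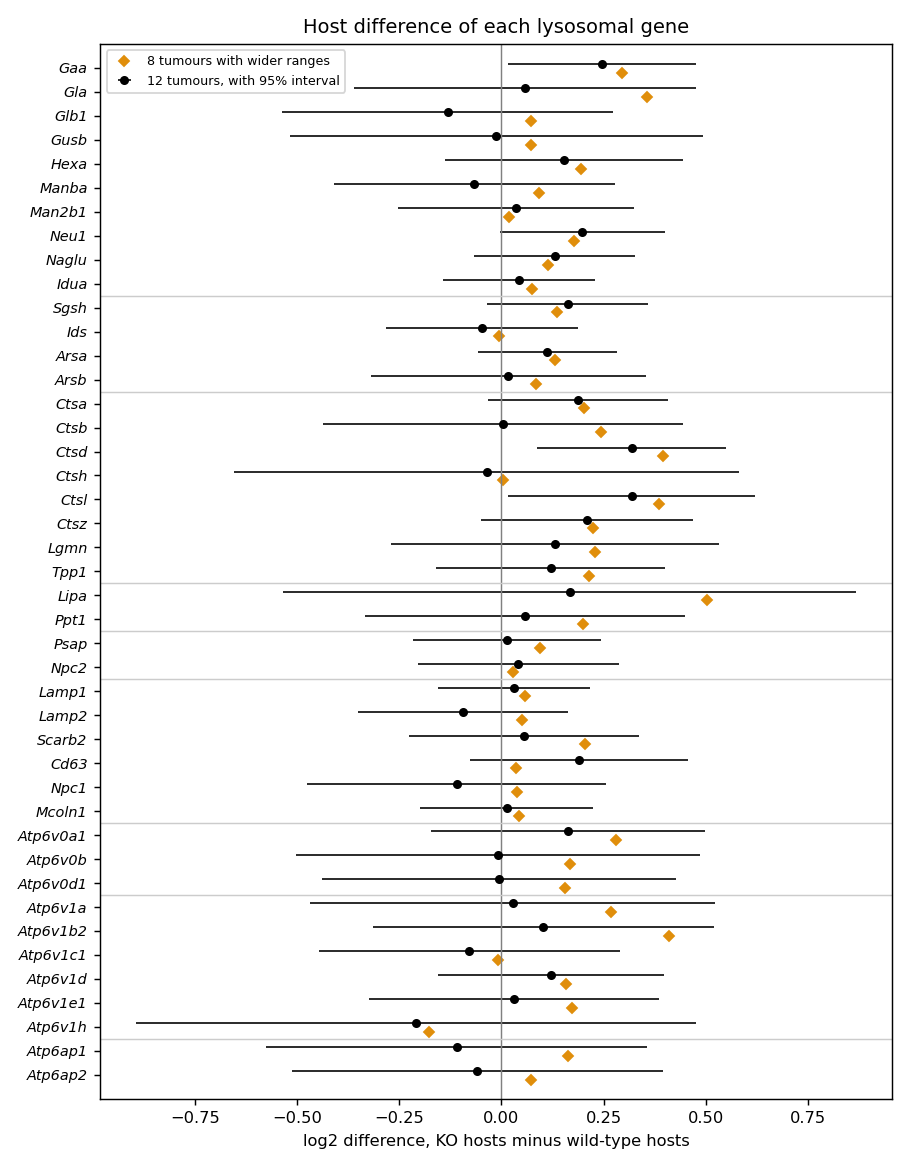
Difference in log2 intensity, KO hosts minus wild-type hosts, for 43 lysosomal genes ordered by role. Black points are differences over all 12 tumours with their 95% intervals, and orange diamonds are differences over the 8 tumours with wider ranges. Intervals of Gaa, Ctsd and Ctsl do not reach 0, and 40 of the 43 diamonds lie right of 0.

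Among the proteases, cathepsin D had the smallest p-value of the module. Ctsd had a lowest, median and highest level of 10.72, 10.96 and 11.24 in KO-host tumours, against 10.49, 10.66 and 10.80 in wild-type-host tumours. KO hosts 3, 4, 5 and 6 lay above every wild-type-host tumour, KO hosts 1 and 2 lay among them, and the groups overlapped. The difference was 0.32 (SE 0.11), with a 95% interval of 0.09 to 0.55.

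Ctsl, a cysteine cathepsin, stood at 10.35, 10.44 and 11.03 in KO-host tumours, against 9.93, 10.21 and 10.49 in wild-type-host tumours. KO host 6 was far above the rest, 3 wild-type-host tumours were below all KO-host tumours, and the other 3 were among them. Its difference was 0.32 (SE 0.14), and 0.22 with KO host 6 left out. Ctsa, the carboxypeptidase that protects neuraminidase and beta-galactosidase, differed by 0.19 (SE 0.10), or 0.12 without KO host 6. Over the 8 proteases 7 differences were above 0, with a median of 0.16, from -0.04 in Ctsh to 0.32 in Ctsl.

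The glycosidases had Gaa at their head. Its levels were 8.25, 8.34 and 8.84 in KO-host tumours, against 8.12, 8.20 and 8.27 in wild-type-host tumours. KO hosts 6 and 4 were the highest, KO hosts 1 and 3 were also above every wild-type-host tumour, and KO hosts 2 and 5 lay within the wild-type range. The difference was 0.25 (SE 0.11), and 0.17 without KO host 6. Neu1, which removes sialic acid, was at 6.30, 6.65 and 6.71 in KO-host tumours, against 6.21, 6.41 and 6.57 in wild-type-host tumours. Only KO host 1 lay low in its group, with 5 KO-host tumours above every wild-type-host tumour, and the difference was 0.20 (SE 0.09). Naglu, which acts on heparan sulfate, differed by 0.13 (SE 0.09). Gusb, the beta-glucuronidase, differed by -0.01 (SE 0.23) and Idua, which removes iduronic acid from glycosaminoglycans, by 0.04 (SE 0.09). Without wild-type host 3 the Idua value was 0.011, and without wild-type host 5 it was 0.09. Of 10 glycosidases, 7 had a difference above 0, with a median of 0.05.

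Of 4 sulfatases 3 had a difference above 0, and so had both lipid hydrolases. Sgsh, which desulfates heparan sulfate, differed by 0.16 (SE 0.09), Arsa, which acts on sulfatide, by 0.11 (SE 0.08), and Ids, the iduronate sulfatase, by -0.05 (SE 0.11). Lipa, the acid lipase that frees cholesterol and fatty acids, had the largest SD over tumours of all members. Its levels were 8.05, 9.47 and 10.30 in KO-host tumours, against 8.55, 9.19 and 9.43 in wild-type-host tumours. KO hosts 2 and 3 gave the lowest values of all tumours and the other 4 KO-host tumours the highest, so that the KO group enclosed the wild-type group, and the difference was 0.17 (SE 0.33). Ppt1, a thioesterase of palmitoylated proteins, differed by 0.06 (SE 0.18).

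Among membrane proteins and cofactors, differences lay between -0.11 and 0.19. Lamp1 differed by 0.03 (SE 0.09) and its relative Lamp2 by -0.09 (SE 0.12). Cd63, a tetraspanin of late endosomes and lysosomes, was at 9.96, 10.08 and 10.70 in KO-host tumours, against 9.83, 9.91 and 10.15 in wild-type-host tumours. KO host 2 alone was high, the other tumours overlapped, and the difference was 0.19 (SE 0.12), or 0.08 without that tumour. Npc1, the membrane exporter of cholesterol, differed by -0.11 (SE 0.17) and its soluble partner Npc2 by 0.04 (SE 0.11). Psap, the precursor of the saposins that present lipids to hydrolases, differed by 0.01 (SE 0.11). Over the 8 genes of this class the median was 0.02, with 6 differences above 0.

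**Figure D2:**
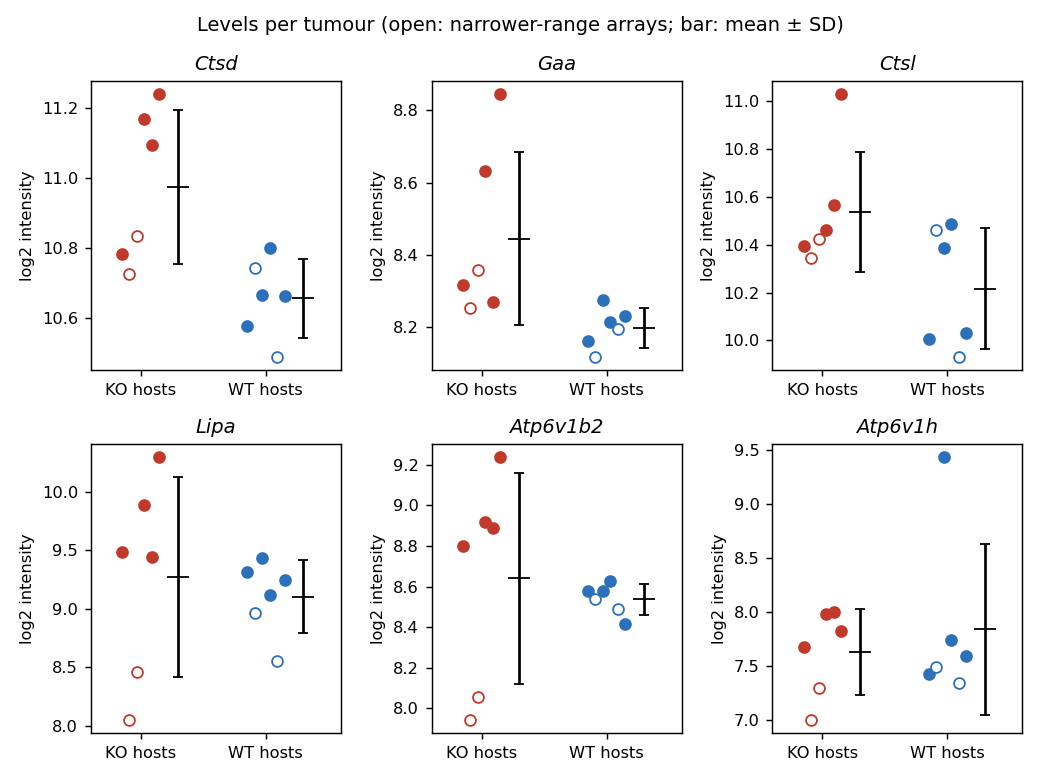
Log2 intensity of 6 lysosomal genes in tumours of KO hosts and wild-type hosts. Each point is a tumour, open points are the 4 arrays with narrower ranges, and the bar beside each group is its mean ± SD (n = 6). In Lipa and Atp6v1b2 the open KO points lie below every other tumour, and in Atp6v1h a single wild-type-host tumour stands at 9.44.

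Pump genes had a median difference of -0.01 over 11 genes, 5 of them above 0. Both depended on single tumours, with 10 above 0 and a median of 0.13 without KO host 3, 2 above 0 and -0.10 without KO host 6, and 3 above 0 and -0.10 without wild-type host 5. In the membrane sector V0, Atp6v0a1, its large proton-conducting subunit, differed by 0.16 (SE 0.16), or 0.07 without KO host 5 and 0.25 without KO host 3, Atp6v0b by -0.01 (SE 0.23), and Atp6v0d1, which couples the sector to the central stalk, by -0.01 (SE 0.20). In the cytosolic sector V1, the catalytic subunit gene Atp6v1a differed by 0.03 (SE 0.23) and the stalk gene Atp6v1d by 0.12 (SE 0.13), or 0.05 without KO host 5. Atp6v1b2, a nucleotide-binding subunit, was at 7.94, 8.84 and 9.24 in KO-host tumours, against 8.41, 8.56 and 8.63 in wild-type-host tumours. KO hosts 2 and 3 were the lowest of all tumours and the other 4 KO-host tumours were the highest, so that the wild-type group lay between them, and the difference was 0.10 (SE 0.19). The accessory genes Atp6ap1 and Atp6ap2 differed by -0.11 (SE 0.22) and -0.06 (SE 0.21).

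Atp6v1h, a regulatory subunit needed for ATP hydrolysis to drive the pump, was at 7.004, 7.75 and 7.998 in KO-host tumours, against 7.35, 7.55 and 9.44 in wild-type-host tumours. Wild-type host 3 stood above all 11 other tumours. The difference was -0.21 (SE 0.32), and turned to 0.11 when that tumour was left out.

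The sign of several of these differences changed when the arrays with narrower ranges were left out. Within the 8 other tumours, 40 of 43 members had a difference above 0, against 47.9% of all probe sets and 56.1% of the 7048 brightest. These were 23 of 24 hydrolases, 9 of 11 pump genes and 8 of 8 membrane proteins or cofactors. The exceptions were Atp6v1h at -0.18, Atp6v1c1 at -0.01 and Ids at -0.01. Of the 43 members, 9 reached an unadjusted p under 0.05, all with higher levels in KO hosts, against 2.56% of all probe sets with higher and 2.53% with lower levels. None passed the adjusted threshold, with limma adjusted p-values from 0.743 upward, where 0.00355% of all probe sets did.

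The largest of the 9 was Lipa at 0.50 (SE 0.17), followed by Atp6v1b2 at 0.41 (SE 0.10), Ctsd at 0.40 (SE 0.11) and Ctsl at 0.39 (SE 0.16). The remaining 5 were Gla, which removes terminal galactose, at 0.36, Gaa at 0.30, Atp6v1a at 0.27, Ppt1 at 0.20 and Hexa, a subunit of beta-hexosaminidase, at 0.19. In Lipa, Ppt1 and Atp6v1b2 all 4 KO-host tumours lay above all 4 wild-type-host tumours, which held for 1.39% of all probe sets. In Lipa these levels ran from 9.45 to 10.30 in KO-host tumours and from 9.12 to 9.43 in wild-type-host tumours.

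Within the 4 narrow arrays, 2 per genotype, 14 of 43 differences were above 0, against 60.2% of all probe sets and 22.9% of the 7048 brightest. Most bright probe sets thus lay below 0 in these arrays, and not the members alone. At an unadjusted p under 0.05, 0 members were higher and 5 lower, against 10.7% and 10.5% of all probe sets, and limma called 0 members, where 0.0177% of all probe sets were called. Lipa was at -0.50 and Atp6v1b2 at -0.51. With all 12 tumours and the range of each array in the model, 37 of 43 differences were above 0 (52.9% of all probe sets, 38.8% of the 7048 brightest). In this model 12 members were higher and 0 lower at an unadjusted p under 0.05 (3.32% and 3.53% of all probe sets). Here limma called 0 members, with adjusted p-values from 0.558 upward, where 0.00355% of all probe sets were called. What sets these 4 arrays apart is not given in the labels, and its part in the host difference was not tested. The range is itself measured from the arrays, so that a change of tissue and a change of array quality cannot be told apart.

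Markers of host cells were read in the same tumours. Of 16 macrophage genes 13 had a difference above 0 and 0 were called, with a mean level from 8.69 to 9.33 in KO-host tumours and 8.57 to 9.30 in wild-type-host tumours. Of 8 neutrophil genes 8 were above 0 and 0 were called, with a mean level from 5.48 to 6.10 in KO-host tumours and 5.41 to 5.65 in wild-type-host tumours. Over all probe sets 57.2% were above 0 and 0.00355% were called, and of the 7048 brightest 31.2% were above 0. That brightest set begins at a mean level of 7.68, which the neutrophil mean did not reach in any tumour. Its share is therefore no match for the neutrophil genes. The neutrophil mean differed by 0.51 in the 4 narrow arrays and by 0.16 in the other 8. For the macrophage mean these differences were 0.10 and 0.08. The part of either cell type in the cathepsin and glycosidase values was not tested. In whole tumours, more cells of a lysosome-rich type and more lysosomal RNA per cell cannot be told apart.

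Hydrolases and pump genes were then set against each other within each tumour, which compares how the classes moved and not their levels. The mean over 24 hydrolases was 8.65 ± 0.26 in KO-host tumours and 8.55 ± 0.12 in wild-type-host tumours. The mean over 11 pump genes was 8.62 ± 0.42 in KO-host tumours and 8.62 ± 0.23 in wild-type-host tumours (SD, n = 6 each). Hydrolases minus pump came to 0.03 ± 0.18 in KO-host tumours and -0.07 ± 0.13 in wild-type-host tumours, a difference between genotypes of 0.10, or 0.05 without wild-type host 3, that was smaller than either SD.

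By tumour, 3 values stood farthest from 0. KO hosts 2 and 3 were at 0.26 and 0.23, and wild-type host 3 was at -0.32. The pump mean of wild-type host 3 includes Atp6v1h at 9.44 and Atp6v1c1 at 10.51, both highest in that tumour together with adjoining genes, as described below. The score without these genes was not computed. KO hosts 2 and 3 are among the 4 narrow arrays, in which the difference between genotypes was 0.24. KO host 5 came next at -0.21, and the other 8 tumours lay between -0.06 and 0.05. In the 8 tumours with wider ranges the difference between genotypes was 0.03, made of 0.18 for hydrolases and 0.15 for the pump. With class medians in place of means it was -0.11 over all 12 tumours. No test was made of this score.

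**Figure D3:**
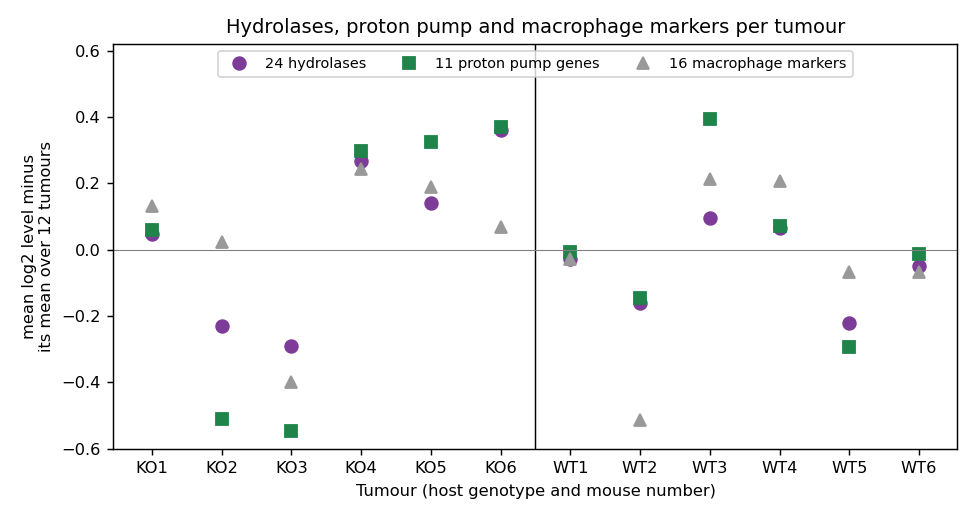
Mean log2 intensity of 24 hydrolases, 11 pump genes and 16 macrophage markers in each tumour, minus the mean of that class over 12 tumours. Pump genes lie lowest in KO hosts 2 and 3, hydrolases lie highest in KO host 6, and macrophage markers lie lowest in wild-type host 2.

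Across tumours, KO hosts 4, 5 or 6 held the highest level of 33 of 43 members, 22 of them in KO host 6, and KO hosts 2 or 3 held the lowest level of 28. The matching shares over all probe sets were not counted, so that these counts do not set the module apart. KO hosts 2 and 3 are among the 4 narrow arrays, in which 80.4% of the 7048 brightest probe sets were lower. The SD over 12 tumours had a median of 0.37 for pump genes, 0.24 for hydrolases and 0.19 for membrane proteins or cofactors. It was 0.28 over all members, against 0.23 over all probe sets and 0.27 over the 7048 brightest. The most variable members were Lipa at 0.62, Atp6v1h at 0.61, Ctsh at 0.54, Gusb at 0.43, Atp6v1a at 0.43 and Atp6v0b at 0.43. The least variable were Arsa, Lamp1 and Idua, each at 0.11.

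The 4 narrow arrays were lower than the other 8 in 38 of 43 members, against 41.5% of all probe sets and 80.4% of the 7048 brightest. By class the median of this difference was -0.59 for pump genes, below 0 in 11 of 11, -0.35 for hydrolases, below 0 in 20 of 24, and -0.17 for membrane proteins or cofactors, below 0 in 7 of 8. The 7048 brightest probe sets had a median of -0.30. Lipa was lower by the most, at -1.02, followed by Ctsh at -0.89 and Gusb at -0.78. Naglu at 0.15, Idua at 0.12, Cd63 at 0.10, Neu1 at 0.04 and Sgsh at 0.01 had higher levels in the narrow arrays.

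**Figure D4:**
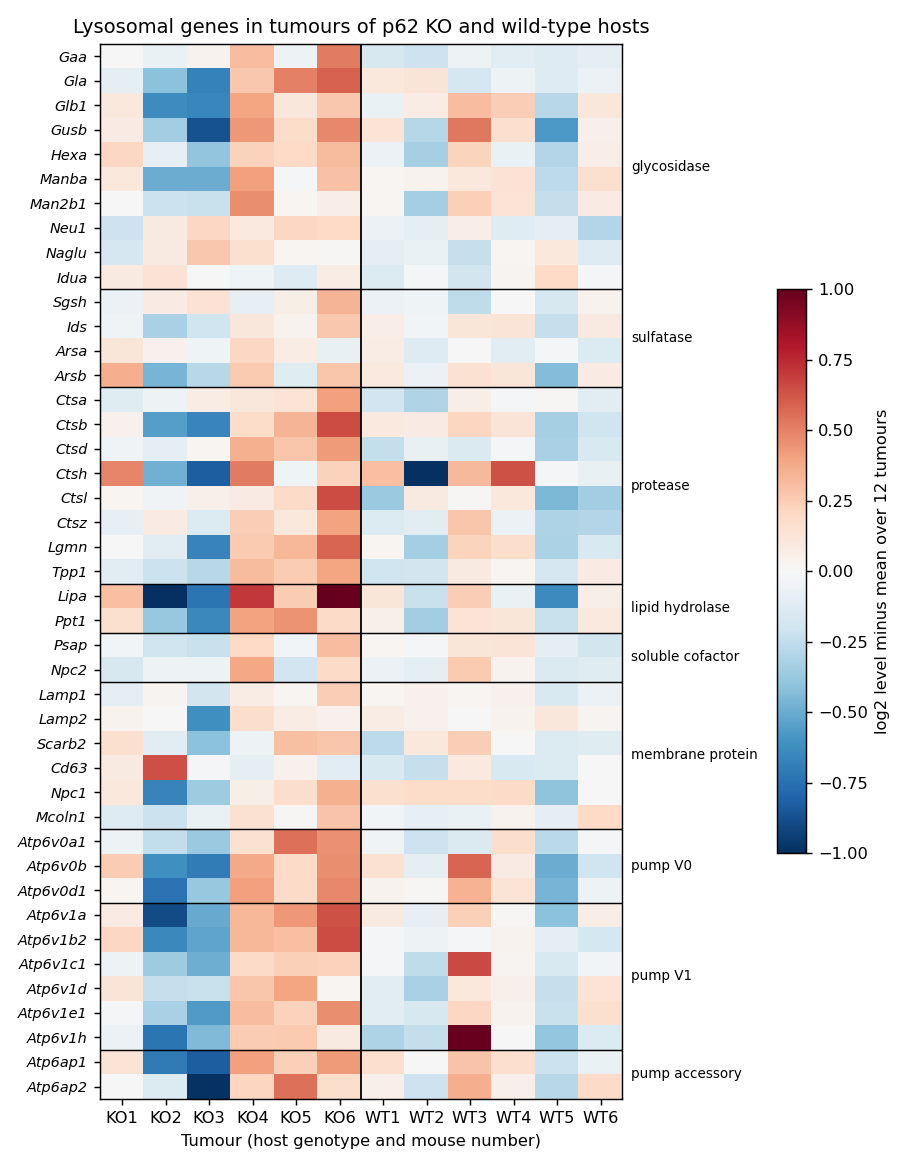
Log2 intensity of 43 lysosomal genes in each of 12 tumours, minus the mean of the gene over all tumours, with genes grouped by role and colours capped at 1 in either direction. KO hosts 4 to 6 hold the highest level of 33 genes, KO hosts 2 and 3 hold the lowest of 28, and Atp6v1h and Atp6v1c1 are highest in wild-type host 3. Matching shares over all probe sets were not counted for these KO hosts.

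Since macrophages are rich in lysosomes, each gene was also fitted on the mean level of the 16 macrophage markers with host genotype as a second term. A slope is the log2 change of a gene per log2 unit of the marker mean. Slopes were above 0 for 39 of 43 members, against 41.8% of all probe sets and 80.1% of the 7048 brightest, those markers left out. At an adjusted p under 0.05 (limma), 7 members rose with the markers and 0 fell, where 2.68% of all probe sets rose and 4.94% fell, and 5.66% of the same brightest set rose. The median slope was 0.55 over the members and 0.47 over the brightest. Endothelial markers rose with the macrophage markers as well, 6 of 7 at the same threshold with a median slope of 1.24, among them Pecam1 at 1.77, Tek at 1.45 and Emcn at 1.38, while 0 of 9 fibroblast, 0 of 8 neutrophil, 0 of 8 epithelial and 0 of 6 T cell markers did. Mean endothelial levels ran from 7.11 to 8.07 in KO-host tumours and from 7.18 to 7.95 in wild-type-host tumours, and their part in the slopes was not tested.

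Ctsh, an aminopeptidase of the cathepsin family, had the steepest slope, 2.06 (SE 0.30, limma adjusted p = 0.00595). Its levels were 7.99, 8.91 and 9.34 in KO-host tumours, against 7.75, 8.96 and 9.45 in wild-type-host tumours. The lowest tumours, wild-type host 2 and KO host 3, were also the lowest for the marker mean. The other 6 were Gusb at 1.38 (SE 0.36), Atp6ap2 at 1.25 (SE 0.32), Ppt1 at 1.12 (SE 0.27), Lgmn, the asparaginyl endopeptidase legumain, at 1.12 (SE 0.28), Atp6v1c1, a stalk subunit, at 0.98 (SE 0.27) and Hexa at 0.78 (SE 0.21). The 3 genes with the smallest p between hosts had slopes that did not pass the test, at 0.18 in Ctsd, 0.18 in Gaa and 0.08 in Ctsl.

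The number of calls depended on single tumours, in the members and over the whole array. Beside each count of members stands the share of all probe sets that rose under the same omission. Without wild-type host 2 the count was 15 (12.4%), and without KO host 2 it was 11 (7.25%). Without KO host 3 it was 0 (0.0319%), and without KO hosts 1, 4 and 5 singly it was 3 (1.46%), 1 (1.1%) and 2 (1.34%). Without wild-type hosts 1 and 3 singly it was 2 (1.51%) and 2 (1.37%). The count stayed at 7 (2.53%) without KO host 6. It was 6 (2.14%), 6 (2.5%) and 6 (2.2%) without wild-type hosts 4, 5 and 6 singly. Within the 8 tumours with wider ranges 0 members were called (0.00355% of all probe sets) and the slope of Ctsh was 1.31. With each array's range added to the model the count was also 0 (0.0426% of all probe sets), at a slope of 1.79 for Ctsh and 0.35 for Gusb. Over all 12 tumours the count was 26 with a common median per array (21.6% of all probe sets), 12 at an adjusted p under 0.1 (9.52%), 3 with a filter on dim probe sets (2.94%) and 2 over all rows of the table (1.36%).

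The high level of Atp6v1h in wild-type host 3 led, after it had been seen, to its neighbours on chromosome 1 in RefSeq order. Mrpl15, a mitochondrial ribosomal protein gene, was at 9.20 in wild-type host 3, against 6.85 to 7.49 in the other 11 tumours. Lypla1, an acyl-protein thioesterase gene, was at 9.88 in wild-type host 3, against 7.51 to 8.27 in the other 11 tumours. Rb1cc1, which encodes the autophagy initiation factor FIP200, was at 10.18 in wild-type host 3, against 7.62 to 8.85 in the other 11 tumours. With Atp6v1h, these were the only 4 of 28192 probe sets that exceeded every other tumour by more than 1 log2 unit in this tumour. Tcea1, Pcmtd1 and Rgs20 were highest there too, so that 6 of 17 measured neighbours were (35.3%), against 9.65% of all probe sets. Genes between them such as Oprk1 and Npbwr1 lay within the range of the other tumours, with levels of 4.59 and 5.16.

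The neighbourhood of Atp6v1c1 on chromosome 15 was looked at in the same way. Atp6v1c1 was at 10.51 in wild-type host 3, against 9.35 to 10.08 in the other 11 tumours, and 11 of its 20 measured neighbours were also highest in wild-type host 3 (55%). Azin1, an inhibitor of antizyme, was at 9.68 in wild-type host 3, against 7.53 to 9.03 in the other 11 tumours, and Dcaf13 was at 10.31 in wild-type host 3, against 9.18 to 9.86 in the other 11 tumours. In both stretches the high pump values of this tumour were shared by adjoining genes from outside the lysosomal module, and the cause was not tested.

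**Figure D5:**
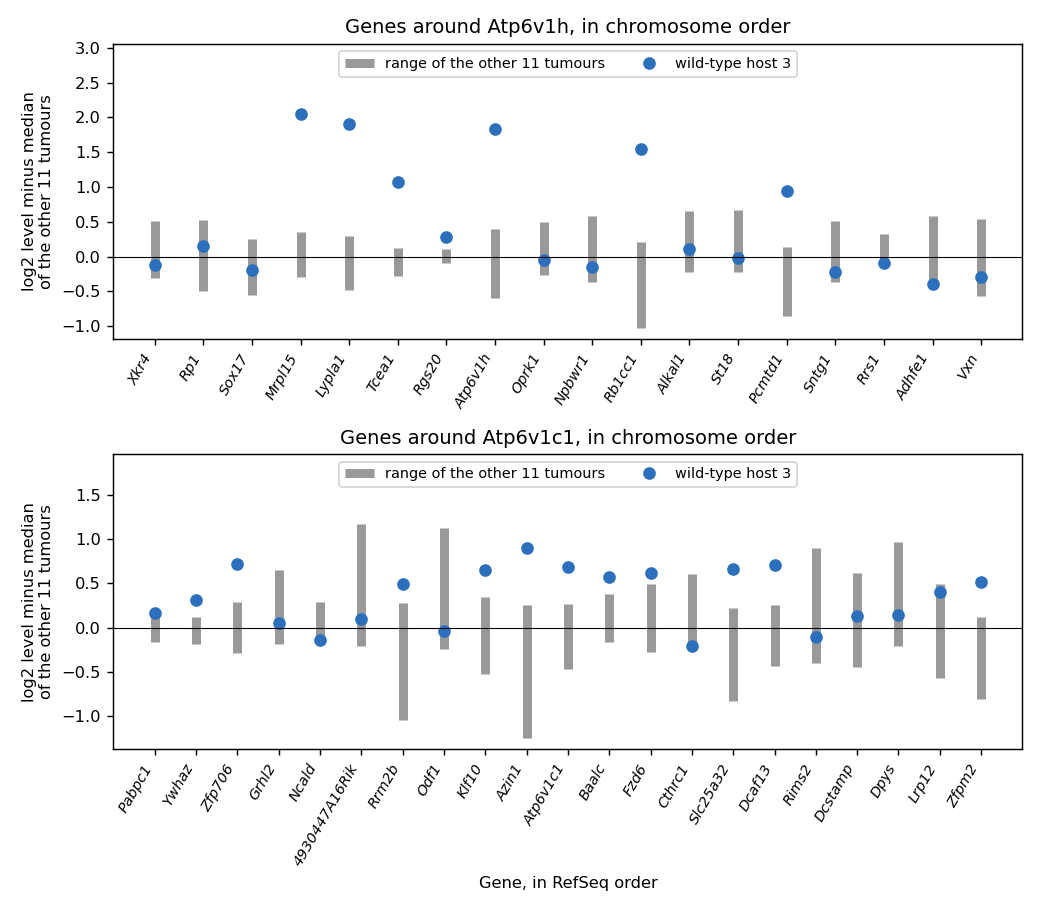
Level of each gene around Atp6v1h on chromosome 1 and Atp6v1c1 on chromosome 15, in RefSeq order, as log2 intensity minus the median of the 11 tumours other than wild-type host 3. Blue points are wild-type host 3 and grey bars the range of the other 11 tumours. Blue points clear the grey bar in 6 of 17 neighbours of Atp6v1h and 11 of 20 neighbours of Atp6v1c1.

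Lysosomal genes outside the module had 0 calls in each list, where 0.00355% of all probe sets were called and 57.2% were above 0. Of the 7048 brightest probe sets 31.2% were above 0, and the lists hold both bright and dim genes. Of 24 further hydrolases, 13 had a difference above 0, with a median of 0.01. Dnase2a, which degrades engulfed DNA, differed by 0.19 (SE 0.08), Acp5, the tartrate-resistant phosphatase of osteoclasts and macrophages, by 0.33 (SE 0.17) and Ctsf, a cysteine cathepsin, by 0.12 (SE 0.08). Of 17 further membrane genes 9 were above 0, with a median of 0.0017. Cd68, a macrophage member of the LAMP family, differed by 0.20 (SE 0.14), the arginine-sensing transporter gene Slc38a9 by -0.26 (SE 0.21) and Laptm4a by -0.10 (SE 0.08).

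Of 13 further pump genes, mostly isoforms of restricted tissues, 10 were above 0. Atp6v0d2, the V0 d isoform of osteoclasts and macrophages, had levels of 6.04, 6.71 and 7.38 in KO-host tumours, against 5.32, 5.89 and 6.46 in wild-type-host tumours. In this gene 5 KO-host tumours were above every wild-type-host tumour and KO host 1 lay among them. Its difference of 0.85 (SE 0.23) exceeded that of every member, with an unadjusted p of 0.00276 and a limma adjusted p of 0.9935. Its slope on the macrophage markers was -1.21 (SE 0.40, limma adjusted p = 0.0699), which did not pass the test. Atp6v1f differed by 0.14 (SE 0.08) and Atp6v1e2 by 0.18 (SE 0.12). Among 11 genes that sort hydrolases to the lysosome 3 were above 0 (27.3%), against 57.2% of all probe sets and 31.2% of the 7048 brightest. Gnptab, which makes the mannose 6-phosphate tag, differed by -0.30 (SE 0.21), the retromer gene Vps35 by -0.23 (SE 0.16) and Sort1, the sorting receptor sortilin, by 0.16 (SE 0.14). Of 14 genes for MiT factors and their regulators 11 were above 0, with Tfeb at 0.15 (SE 0.10), Tfe3 at -0.05 (SE 0.09), Mitf at 0.16 (SE 0.15), Tfec at 0.23 (SE 0.17) and the Rag GTPase gene Rraga at 0.13 (SE 0.10). The mean over the sorting genes differed by -0.23 in the 4 narrow arrays and by 0.03 in the other 8. For the MiT list these differences were -0.08 and 0.14.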

How the data were processed

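The authors deposited log2 intensities per probe set, and RMA is named, with no version, in the submitters' processing notes. The array's raw signals were not used here. Of 34760 rows, 6568 with the lowest identifiers and no annotated gene were taken as controls, leaving 28192, of which 21640 had 1 gene symbol, 1321 several and 5231 none. Symbols come from the platform annotation, and Entrez identifiers changed 0 of them. The members and lists were chosen with earlier results of these data known.

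The host comparison used lmFit and eBayes of limma 3.58.1 (R 4.3.3), two-sided and without covariates. P-values were adjusted by Benjamini-Hochberg over all tested probe sets, with a threshold of 0.05. Slopes on the mean of 16 macrophage markers had genotype as a second term and left those markers out. The fit was tested on simulated data. Members described singly are, per role, up to 3 with the smallest p between hosts, and the 6 most and 3 least variable. Outside the module, Sqstm1, the MiT factors and Atp6v0d2 are described, with up to 3 genes per list by the same p, and genes around Atp6v1h and Atp6v1c1 were chosen after their values were seen, as were Gla, Hexa, Manba, Arsb, Lgmn, Atp6v1c1, Pecam1, Tek and Emcn. Alternatives were other scalings, probe set rules, filters, weights, covariates and sets of tumours. Arrays give no read depth, and the precision is limited by how many there were.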

Additional observations from a re-analysis of the deposited data

Results flagged for a closer look

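Among 86 groups of 6 tumours, 1 per member and genotype, 9 held a tumour that stood apart from the rest by Dixon's criterion (10.5%), against 6.06% of all groups of all probe sets. Chance gives about 1 in 20. In KO hosts, Neu1 was low in mouse 1 at 6.3 with the nearest tumour at 6.59, Lamp2 was low in mouse 3 at 9.79 with the nearest at 10.4, Cd63 was high in mouse 2 at 10.7 with the nearest at 10.2, and Ctsl was high in mouse 6 at 11 with the nearest at 10.6. In wild-type hosts, mouse 5 was low in 3 genes, Manba, a beta-mannosidase, at 6.97 with the nearest at 7.24, Arsb at 8.49 with the nearest at 8.86, and Npc1 at 8.65 with the nearest at 9.06. Mouse 3 of the wild-type hosts was high in Atp6v1h at 9.44 with the nearest at 7.74, and in Atp6v1c1 at 10.5 with the nearest at 9.87. KO hosts 2 and 3 and wild-type host 5 are among the 4 arrays with narrower ranges, and their part in these values was not tested.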

How the results depend on the processing

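In 0 of 24 settings was a lysosomal gene called between hosts, where 0 to 5 probe sets of the whole array were called per setting. Over these settings and the 29 members described singly, 92 of 694 differences had the opposite sign, in 19 members, 0 of them past the threshold, and 10 members kept their sign throughout. With a common median per array, the difference was -0.021 in Psap, -0.0071 in Atp6v1a and -0.0039 in Lamp1. With quantile normalization, the difference was 0.052 in Atp6v0b, 0.011 in Atp6v0d1, 0.021 in Ctsh and 0.047 in Gusb. Without KO hosts 2 and 3, the difference was 0.070 in Ids, 0.036 in Lamp2, 0.12 in Npc1, 0.32 in Atp6v0b, 0.27 in Atp6v0d1, 0.032 in Atp6v1h, 0.25 in Atp6ap1, 0.21 in Atp6ap2, 0.28 in Ctsh and 0.29 in Gusb. In the 8 tumours with wider ranges, the difference was 0.051 in Lamp2, 0.039 in Npc1, 0.17 in Atp6v0b, 0.16 in Atp6v0d1, 0.16 in Atp6ap1, 0.073 in Atp6ap2, 0.0034 in Ctsh and 0.073 in Gusb. In the 4 with narrower ranges, the difference was -0.50 in Lipa, -0.23 in Ppt1, -0.15 in Psap, -0.071 in Atp6v0a1, -0.51 in Atp6v1b2, -0.45 in Atp6v1a, -0.019 in Idua and -0.022 in Lamp1. With each array's range as a covariate, the difference was 0.10 in Atp6v0b, 0.090 in Atp6v0d1, 0.00042 in Atp6ap1, 0.037 in Atp6ap2, 0.075 in Ctsh and 0.11 in Gusb. With array weights, the difference was 0.020 in Ids, 0.022 in Lamp2, 0.038 in Npc1, 0.23 in Atp6v0b, 0.20 in Atp6v0d1, 0.083 in Atp6v1h, 0.16 in Atp6ap1, 0.17 in Atp6ap2, 0.10 in Ctsh and 0.18 in Gusb. Leaving out 1 tumour in turn, differences ran from -0.11 to 0.012 in Ids, -0.038 to 0.41 in Lipa, -0.026 to 0.19 in Ppt1, -0.032 to 0.098 in Npc2, -0.047 to 0.060 in Psap, -0.14 to 0.020 in Lamp2, -0.20 to 0.014 in Npc1, -0.11 to 0.13 in Atp6v0b, -0.10 to 0.14 in Atp6v0d1, -0.31 to 0.11 in Atp6v1h, -0.017 to 0.24 in Atp6v1b2, -0.20 to 0.045 in Atp6ap1, -0.18 to 0.13 in Atp6ap2, -0.25 to 0.13 in Ctsh, -0.13 to 0.16 in Gusb, -0.097 to 0.21 in Atp6v1a and -0.015 to 0.071 in Lamp1. The cause of these reversals was not tested. The count of 7 slopes called on macrophage markers became 26 with a common median per array, where 21.6% of all probe sets were called. It was 12 at an adjusted p under 0.1 (9.52%), 3 with a filter on dim probe sets (2.94%), 2 over all rows of the table (1.36%), and 1 each without KO hosts 2 and 3 (0.124%), with array weights (0.231%) and with Csf1r alone (0.231%). It was 0 with quantile normalization (0% of all probe sets), in the 8 tumours with wider ranges and with each array's range as a covariate, and ran from 0 (0.0319%) to 15 (12.4%) with 1 tumour left out. Hydrolases minus pump was 0.10 with class means and -0.11 with class medians, and lay between 0.05 and 0.15 with 1 tumour left out. Leaving out 1 tumour in turn, the median difference of hydrolases ran from 0.03 without KO host 6 to 0.17 without KO host 3, and that of pump genes from -0.10 to 0.13. The labels do not say whether mouse numbers pair the tumours. In a check of pairing, coefficients of same-numbered tumours lay between -0.55 and 0.37, and 0 of 6 tumours had their best with their own number. They are not the correlations of whole arrays, which ran from 0.935 to 0.991 over all pairs. The pairing coefficients cannot show whether same-numbered mice were handled together. The replicate block left 0 members called between hosts and 0 slopes called. Over all probe sets, too, 0 were called between hosts and 0% rose with the markers under this block. Hydrolases minus pump was not refitted under settings that change only the test, and the slope was not fitted in the 4 narrow arrays. Without detection calls, low levels cannot be set against background.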
